A study of Mus musculus with 29 samples.

Results

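Fibroblast growth factor (FGF) signalling was followed through 10 genes in embryonic mouse brain: the Sprouty genes Spry1, Spry2 and Spry4, the phosphatase gene Dusp6, the transcription factor genes Etv4 and Etv5, the membrane inhibitor gene Il17rd, the ligand gene Fgf15 and the receptor genes Fgfr2 and Fgfr3. They were taken by symbol from the RNA count tables, and all 10 of the 10 symbols were found among 25239 genes. All 10 passed the filter on low counts and were among the 15383 genes tested. Poly(A) RNA had been sequenced from tissue of E11.5 mouse embryos in 4 groups: wild-type midbrain, midbrain of hs654 knockout embryos, wild-type forebrain, and forebrain of hs267-853 knockout embryos. The knockouts are named for enhancers, and whether hs267-853 stands for 1 deleted enhancer or for 2 is not given in the sources used here. Neither are the genes that these enhancers act on. Each group had 2 libraries, each made from one pool of tissue of several embryos. A p-value therefore measures the spread between such pools, not between single embryos. The strain and sex of the embryos and whether knockout and wild-type embryos were littermates were not given in the sources used here.

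FGF ligands bind receptor tyrosine kinases of the FGFR family, and the signal runs through adaptor proteins and RAS to the kinases RAF, MEK and ERK. Active ERK switches on a set of genes, among them the ETS-family factors ETV4 and ETV5 and several inhibitors of the pathway itself: Sprouty proteins, the ERK phosphatase DUSP6 and the membrane protein IL17RD (also called Sef). RNA of these genes is therefore widely used as a readout of FGF signalling. In the early brain, FGF ligands are made at the anterior midline of the forebrain and at the isthmus between midbrain and hindbrain, and both sources pattern the tissue around them.

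Spry1, Dusp6 and Etv5 were the members higher in forebrain than in midbrain, in wild-type and in knockout pools alike. Their sequences just upstream of the annotated gene start are shown because these 3 genes moved together and because ETS factors, which act downstream of ERK, bind short purine-rich sites. Each line gives the 250 bases before the start, 5′ to 3′ on the gene's own strand, from RefSeq on build GRCm38.p6, with any match to the searched letters in capitals. Spry1 lies at chr3:37639697-37639946 (plus strand), Dusp6 at chr10:99262981-99263230 (plus strand) and Etv5 at chr16:22439571-22439820 (minus strand).
Spry1: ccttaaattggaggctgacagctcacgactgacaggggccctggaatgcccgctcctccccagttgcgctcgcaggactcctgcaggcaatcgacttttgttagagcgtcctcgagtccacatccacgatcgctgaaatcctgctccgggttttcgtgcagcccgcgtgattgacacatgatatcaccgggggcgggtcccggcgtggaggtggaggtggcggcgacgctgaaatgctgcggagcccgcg
Dusp6: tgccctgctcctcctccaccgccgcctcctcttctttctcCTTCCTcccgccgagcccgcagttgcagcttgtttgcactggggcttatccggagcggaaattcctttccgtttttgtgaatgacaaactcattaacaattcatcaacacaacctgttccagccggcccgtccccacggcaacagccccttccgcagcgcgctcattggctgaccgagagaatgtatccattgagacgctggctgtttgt
Etv5: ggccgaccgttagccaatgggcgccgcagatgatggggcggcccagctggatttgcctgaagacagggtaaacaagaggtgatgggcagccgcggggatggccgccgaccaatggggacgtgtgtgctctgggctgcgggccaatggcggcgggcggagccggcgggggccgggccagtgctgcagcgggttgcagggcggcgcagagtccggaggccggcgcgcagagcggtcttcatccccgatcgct

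The letters searched on both strands were CCGGAAG, a common ETS consensus, and AGGAAG, a PEA3-type core. Neither motif contains the other. The capitals in Dusp6 mark AGGAAG read on the opposite strand, 210 bases before the gene start. The Spry1 and Etv5 windows hold neither motif and so are in lower case throughout. Usable windows were found for 7 of the 10 members, 9 windows in all, since Etv5 and Fgfr3 have 2 annotated starts each. CCGGAAG was in 0 of the 9 and in 6.91% of 32851 mouse windows of the same length. AGGAAG was in 2 of the 9 (Dusp6 and Fgfr2) and in 29.5% of the mouse windows. These matches describe letters only, not binding.

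The libraries held 9051632 to 18024406 counts in genes, and 3 counts in a library equalled 0.170 to 0.328 CPM (a gene's counts relative to its library's total, always scaled with TMM factors here). Every member was well above that level in every library. Forebrain knockout replicate 1 stood apart from the other forebrain libraries on the second principal component, which held 6.33% of the variance (33.7, against -18.3 to -3.18). The summed level of 13 midbrain and hindbrain markers was 613 to 643 CPM in midbrain and 55.4 to 88.9 CPM in forebrain libraries. This is the order the tissue labels give. Most of the forebrain sum was Otx2, at 44.5 to 75.8 CPM in forebrain and 244 to 279 CPM in midbrain libraries. En2 was at 130 to 158 CPM in midbrain and 0 in forebrain libraries. CPM values are not corrected for gene length, so levels are compared between groups and never between genes.

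Of the 3 Sprouty genes, which encode intracellular inhibitors of receptor tyrosine kinase signalling, only Spry1 passed the test between tissues. Spry1 (chr3:37639947-37644599) was at 20.4 and 27.3 CPM in the 2 pools of wild-type midbrain and 20.9 and 28.4 CPM in hs654 knockout midbrain. In forebrain it was at 41.6 and 47.5 CPM in the wild type and 48.5 and 52.8 CPM in the hs267-853 knockout. All 4 forebrain libraries were above all 4 midbrain libraries, and the lowest forebrain value was 1.46 times the highest midbrain value. The log2 fold change, forebrain over midbrain, was 0.91 (SE 0.15, adjusted p = 0.000655) in wild-type pools and 1.05 (SE 0.16, adjusted p = 0.000232) in knockout pools, by the quasi-likelihood test of edgeR, with p adjusted by Benjamini and Hochberg's method over all genes tested, as throughout. The 2 comparisons share no library, though the forebrain and midbrain knockout pools lack different enhancers.

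Spry2 (chr14:105891947-105896819) leaned the other way. It was at 15.8 and 18.9 CPM in wild-type midbrain, 18.1 and 16.8 CPM in knockout midbrain, 14.0 and 15.2 CPM in wild-type forebrain and 12.5 and 14.4 CPM in knockout forebrain. All 4 forebrain libraries were below all 4 midbrain libraries, by a narrow margin, and neither comparison passed the threshold of 0.05 (log2 fold change -0.24, adjusted p = 0.232, and -0.38, adjusted p = 0.0698). Spry4 (chr18:38586247-38601347) was at 5.50 and 7.03 CPM in wild-type midbrain, 6.28 and 4.70 CPM in knockout midbrain, 5.97 and 6.42 CPM in wild-type forebrain and 6.53 and 8.05 CPM in knockout forebrain. Its tissues overlapped. Its log2 fold change was -0.01 in wild-type pools (95% interval -0.50 to 0.48) and 0.39 in knockout pools (-0.11 to 0.89), so differences of about that size cannot be told from none.

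Dusp6 encodes a phosphatase that takes the activating phosphates off ERK. It lies at chr10:99263231-99267489 and was at 28.2 and 36.8 CPM in wild-type midbrain, 27.2 and 31.2 CPM in knockout midbrain, 50.0 and 61.0 CPM in wild-type forebrain and 56.2 and 66.4 CPM in knockout forebrain. The tissues did not overlap, and the closest forebrain and midbrain libraries differed 1.36 times. Forebrain was higher by a log2 fold change of 0.78 (SE 0.14, adjusted p = 0.00107) in wild-type and 1.07 (SE 0.14, adjusted p = 0.000104) in knockout pools.

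Etv4 and Etv5, sister ETS factors induced by ERK, parted. Etv5 (chr16:22381313-22439570) was at 21.4 and 29.4 CPM in wild-type midbrain, 26.1 and 20.3 CPM in knockout midbrain, 37.3 and 45.5 CPM in wild-type forebrain and 40.7 and 41.6 CPM in knockout forebrain. Every forebrain library was above every midbrain library. Forebrain was higher by 0.71 on the log2 scale (SE 0.15, adjusted p = 0.00384) in wild-type and 0.82 (SE 0.16, adjusted p = 0.00169) in knockout pools. The wild-type call was lost without midbrain wild-type replicate 1 (0.49, adjusted p = 0.0599) and without forebrain wild-type replicate 2 (0.56, adjusted p = 0.0511). Etv4 (chr11:101769747-101785310) was at 8.10 and 10.7 CPM in wild-type midbrain, 9.38 and 8.30 CPM in knockout midbrain, 8.89 and 9.83 CPM in wild-type forebrain and 9.99 and 12.1 CPM in knockout forebrain. Its tissues overlapped, with a log2 fold change of 0.00 (95% interval -0.41 to 0.41) in wild-type and 0.31 (-0.10 to 0.73) in knockout pools.

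Il17rd, the membrane inhibitor, did not follow Spry1, Dusp6 and Etv5. It lies at chr14:27038964-27107286 and was at 86.0 and 115.7 CPM in wild-type midbrain, 109.3 and 116.4 CPM in knockout midbrain, 69.6 and 94.3 CPM in wild-type forebrain and 94.8 and 105.6 CPM in knockout forebrain. The tissues overlapped, with forebrain wild-type replicate 1 lowest. Its log2 fold change was -0.30 (SE 0.14, adjusted p = 0.136) in wild-type and -0.17 (SE 0.14, adjusted p = 0.396) in knockout pools. The wild-type difference passed the threshold without midbrain wild-type replicate 1 (-0.50, adjusted p = 0.0271) and without forebrain wild-type replicate 2 (-0.53, adjusted p = 0.0287), so it hung on single pools.

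Fgf15, the mouse counterpart of human FGF19 and a secreted ligand of the embryonic neuroepithelium, was the one member called lower in forebrain, in wild-type pools. It lies at chr7:144896532-144900953 and was at 50.0 and 53.6 CPM in wild-type midbrain, 45.5 and 48.5 CPM in knockout midbrain, 22.5 and 36.1 CPM in wild-type forebrain and 36.1 and 37.9 CPM in knockout forebrain. All 4 forebrain libraries were below all 4 midbrain libraries, and forebrain wild-type replicate 1 was lowest of all. The log2 fold change was -0.83 (SE 0.16, adjusted p = 0.00163) in wild-type pools and ranged from -1.20 to -0.52 when 1 library was left out. In knockout pools it was -0.34 (SE 0.16, adjusted p = 0.123), which did not pass. The difference between these 2 values is itself tested below and did not pass.

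The receptor genes Fgfr2 and Fgfr3 were level across the tissues. Fgfr2 (chr7:130162451-130266808) was at 110.6 and 94.0 CPM in wild-type midbrain, 104.6 and 98.3 CPM in knockout midbrain, 123.2 and 103.7 CPM in wild-type forebrain and 100.4 and 101.2 CPM in knockout forebrain. Fgfr3 (chr5:33721724-33737068) was at 176.9 and 145.3 CPM in wild-type midbrain, 167.3 and 147.0 CPM in knockout midbrain, 174.3 and 144.5 CPM in wild-type forebrain and 167.4 and 136.1 CPM in knockout forebrain. Tissues overlapped for both. The log2 fold change of Fgfr2 was 0.15 (95% interval -0.05 to 0.35) in wild-type and -0.01 (-0.21 to 0.19) in knockout pools, and that of Fgfr3 was -0.02 (-0.27 to 0.24) and -0.05 (-0.31 to 0.21). These intervals leave out changes of 1.5-fold in either direction, which lie at 0.58 on the log2 scale. Fgfr1, the receptor gene outside the member list, behaved otherwise: it was at 134.3 and 147.8 CPM in wild-type midbrain, 139.0 and 134.4 CPM in knockout midbrain, 191.7 and 205.5 CPM in wild-type forebrain and 205.2 and 198.3 CPM in knockout forebrain. Its tissues did not overlap, and forebrain was higher by 0.49 (SE 0.07, adjusted p = 9.91e-05) and 0.56 (SE 0.07, adjusted p = 3.64e-05) on the log2 scale.

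**Figure D1:**
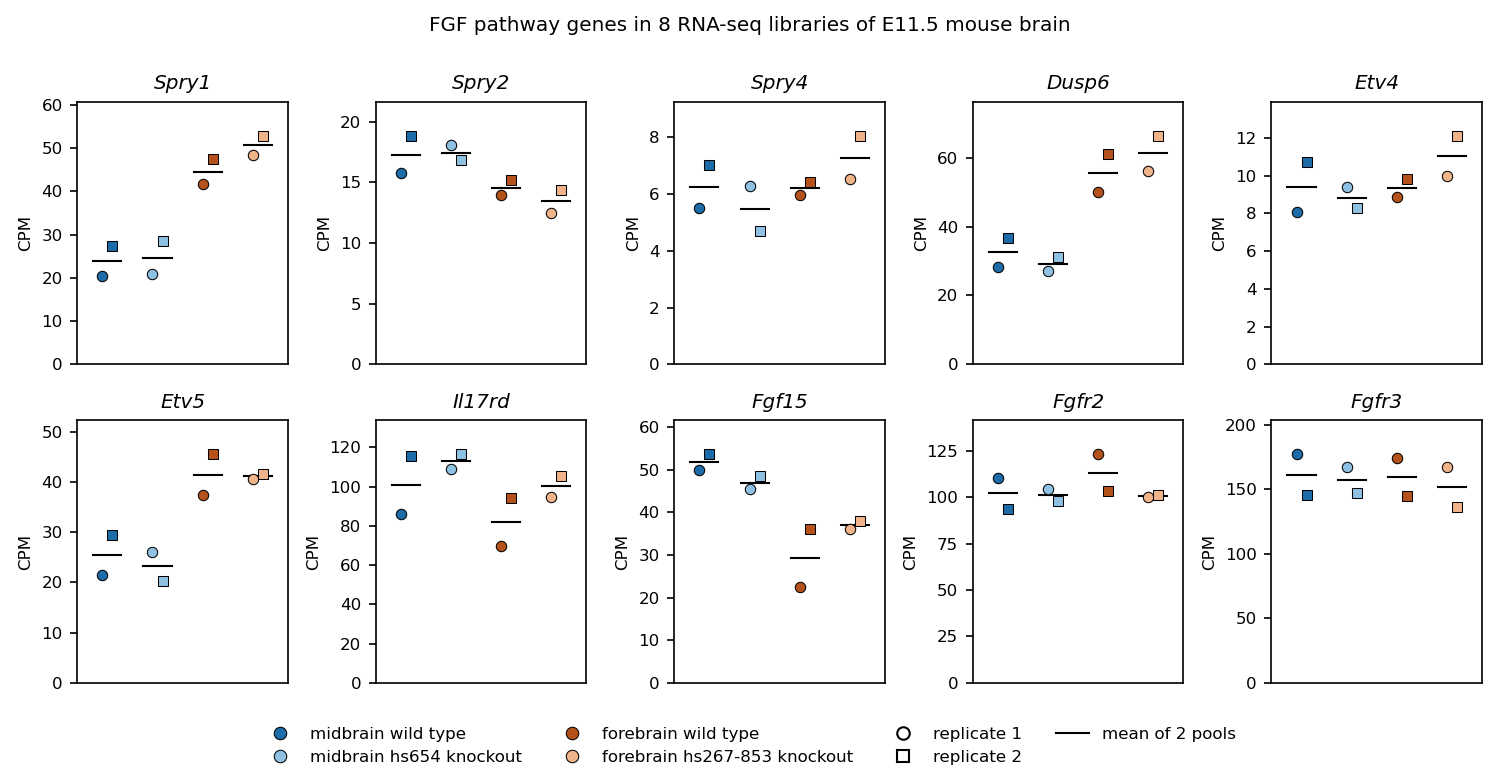
Level of each of the 10 genes in CPM (vertical axis, from 0) in the 8 libraries, coloured by group, with circles for replicate 1, squares for replicate 2 and a line at the mean of 2 pools. Forebrain points lie above all midbrain points for Spry1, Dusp6 and Etv5 and below them for Spry2 and Fgf15, and the tissues overlap for the other 5 genes. The share of all genes split in this way was not counted.

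Counted over the list, 4 of 10 members passed in wild-type pools, where 29.6% of all tested genes did, and 3 of 10 in knockout pools, where 29.4% did. In wild-type pools 3 members were higher in forebrain (14.3% of all genes) and 1 was lower (15.3%). In knockout pools 3 were higher (14.6% of all genes) and 0 lower (14.8%). The libraries of the 2 tissues did not overlap for 5 of 10 members in wild-type pools (65.9% of all genes) and 8 of 10 in knockout pools (64.4%). Much of the transcriptome differed between the tissues, and nothing particular to the list is read from these shares, some of which lie above and some below the background. A split of all 4 forebrain from all 4 midbrain libraries, given for single members above, was not counted over all genes. It is therefore a description only. The median log2 fold change of the members was 0.00 in wild-type and 0.15 in knockout pools, beside 0.00 and 0.02 over all genes tested. When the test asked for a change beyond 1.5-fold, 0 of 10 members passed in wild-type pools, and Spry1 and Dusp6 passed in knockout pools (adjusted p = 0.0212 and 0.0102).

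**Figure D2:**
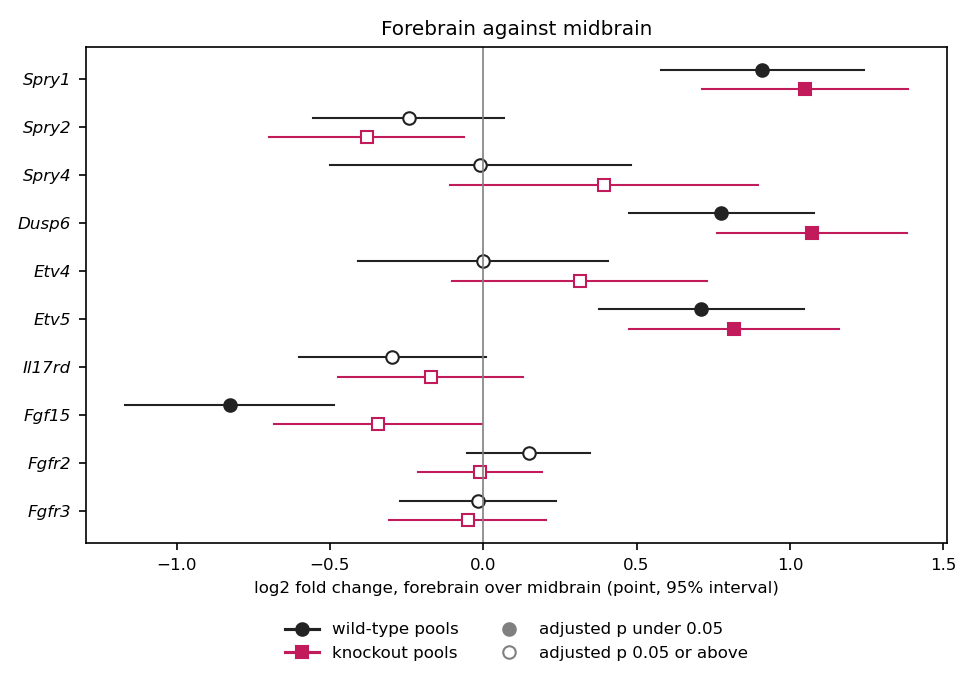
Log2 fold change of each gene, forebrain over midbrain (horizontal axis), with its 95% interval, in wild-type pools (circles) and knockout pools (squares). Filled symbols, with an adjusted p under 0.05, are Spry1, Dusp6 and Etv5 in both comparisons and Fgf15 in wild-type pools.

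Ratios of 2 genes of one family within a library do not depend on how libraries are scaled, and gene length cancels when the ratio is compared between tissues. The 7 pairs taken were those among Spry1, Spry2 and Spry4, those among Fgfr1, Fgfr2 and Fgfr3, and Etv5 with Etv4. Other genes of these families, among them Spry3, Etv1 and Fgfr4, were not paired. The ratios were chosen after the values had been seen and restate them in part, so they are given as a description with no test. Over Spry2, Spry1 had 2.98 and 3.13 times the counts in wild-type forebrain, 3.89 and 3.67 times in knockout forebrain, 1.29 and 1.45 times in wild-type midbrain and 1.16 and 1.69 times in knockout midbrain. The tissues were 1.30 apart on the log2 scale (forebrain 1.76 ± 0.18, midbrain 0.47 ± 0.23, SD, n = 4 each), as follows from Spry1 being above and Spry2 below in every forebrain library. Over Spry4, Spry1 was higher in forebrain by 0.78 without overlap, and midbrain knockout replicate 2, with 43 Spry4 counts, came nearest to the forebrain libraries.

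For Etv5 over Etv4, the ratio was 4.20 and 4.63 in wild-type forebrain, 4.07 and 3.43 in knockout forebrain, 2.65 and 2.75 in wild-type midbrain and 2.78 and 2.45 in knockout midbrain. Forebrain was higher by 0.61 on the log2 scale (2.02 ± 0.18 against 1.41 ± 0.08, SD, n = 4 each), and the tissues did not overlap. Fgfr1 over Fgfr3 was higher in forebrain by 0.56, without overlap. Fgfr1 over Fgfr2 was higher by 0.46, with overlap. Fgfr2 over Fgfr3 differed by 0.10, with overlap. Spry4 over Spry2 was higher in forebrain by 0.52 without overlap, but by 0.24 in wild-type and 0.80 in knockout libraries, so the size of that shift rested on the knockout pools.

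**Figure D3:**
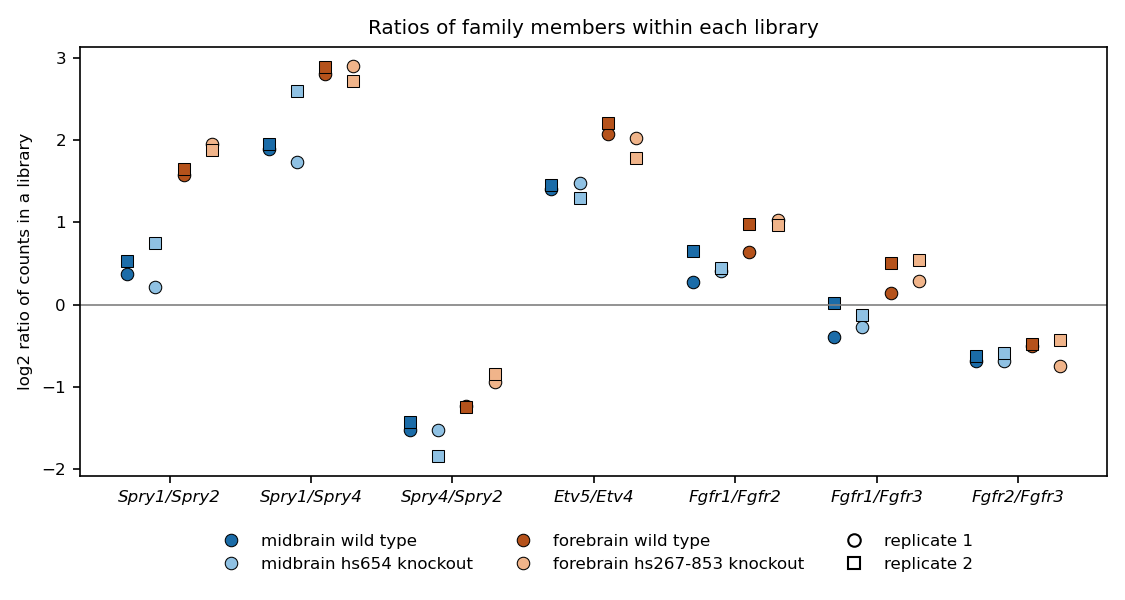
Log2 ratio of the counts of 2 genes of a family within each library (vertical axis), for 7 pairs, coloured by group with circles for replicate 1 and squares for replicate 2. Forebrain libraries lie above midbrain libraries for Spry1/Spry2, Spry1/Spry4, Spry4/Spry2, Etv5/Etv4 and Fgfr1/Fgfr3, and the tissues overlap for Fgfr1/Fgfr2 and Fgfr2/Fgfr3.

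Among 17 other FGF ligand genes, 7 were expressed enough to test. Of these, 1 was higher in wild-type forebrain (14.3% of all genes) and 2 in knockout forebrain (14.6%), with none lower (15.3% and 14.8%). Neither this list nor those below were tested as a set. Fgf17, a ligand of the anterior midline and the isthmus, was at 8.29 and 20.0 CPM in wild-type midbrain, 15.7 and 15.8 CPM in knockout midbrain, 24.0 and 29.2 CPM in wild-type forebrain and 35.5 and 36.6 CPM in knockout forebrain. The tissues did not overlap, but midbrain wild-type replicate 1 was far below its partner. Forebrain was higher by a log2 fold change of 0.94 (SE 0.27, adjusted p = 0.0181) in wild-type pools, where it was lost without midbrain wild-type replicate 1 (0.40, adjusted p = 0.101) or forebrain wild-type replicate 2 (0.79, adjusted p = 0.121) and with DESeq2 (0.91, adjusted p = 0.128). It was 1.19 (SE 0.26, adjusted p = 0.00411) in knockout pools, where it was lost without midbrain knockout replicate 1 (1.17, adjusted p = 0.0533).

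Fgf8, which shares both sources with Fgf17, was at 3.54 and 6.23 CPM in wild-type midbrain, 4.04 and 3.50 CPM in knockout midbrain, 8.42 and 5.65 CPM in wild-type forebrain and 9.19 and 8.32 CPM in knockout forebrain. The wild-type libraries overlapped, and the log2 fold change of 0.55 (SE 0.28, adjusted p = 0.161) did not pass, though it did without midbrain wild-type replicate 2 (1.00, adjusted p = 0.0381). Knockout forebrain was higher by 1.21 (SE 0.29, adjusted p = 0.00699), a call lost without midbrain knockout replicate 2 (1.12, adjusted p = 0.0683). Fgf18 was low, between 1.09 and 4.15 CPM over the 8 libraries, with log2 fold changes of -1.02 (SE 0.50, adjusted p = 0.147) and -0.13 (SE 0.50, adjusted p = 0.873). The summed level of the 5 genes that mark these sources (Fgf3, Fgf8, Fgf17, Fgf18 and Sp8) was 30.6 to 50.4 CPM in midbrain libraries, 96.2 to 104 CPM in wild-type forebrain and 120 to 121 CPM in knockout forebrain. Most of the forebrain sum was Sp8: its level was 60.9 and 66.9 CPM in the wild-type pools, 73.1 and 72.0 CPM in the knockout pools, and 16.2 to 19.9 CPM over midbrain libraries. Sp8 also marks other forebrain cells, and the part of these sources in the member values was not tested.

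FGF homologous factors act inside the cell on sodium channels and not on FGF receptors. Of the 4, wild-type pools had 3 lower in forebrain (Fgf11, Fgf12 and Fgf14) and knockout pools 2 (Fgf11 and Fgf12). Over all genes tested, 15.3% and 14.8% were lower. Fgf13 had log2 fold changes of 0.24 (adjusted p = 0.180) and 0.23 (adjusted p = 0.208). Fgf12 had log2 fold changes of -1.35 (SE 0.36, adjusted p = 0.0129) and -1.62 (SE 0.36, adjusted p = 0.00420), and Fgf11 of -0.77 (SE 0.21, adjusted p = 0.0153) and -1.18 (SE 0.21, adjusted p = 0.000877). In wild-type pools these calls rested on single libraries: the Fgf12 call was lost without midbrain replicate 1 (adjusted p = 0.0685) or forebrain replicate 1 (0.118), and the Fgf11 call without midbrain replicate 2 (0.119) or either forebrain pool (0.0786 and 0.0651). The Fgf14 call (-0.75, SE 0.26, adjusted p = 0.0423) was lost with DESeq2 (0.0893) and without any 1 of the 4 wild-type libraries (0.0690 to 0.218). The 9 neuronal markers, all with counts in every library, summed to 3401 to 3826 CPM in midbrain and 1444 to 2036 CPM in forebrain. The part of neurons in this difference was not tested. In bulk tissue, fewer cells of a type and less RNA per cell cannot be told apart, which holds for every level given here.

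Of 17 other receptor and co-receptor genes, 15 were tested. In wild-type pools 6 were higher (14.3% of all genes) and 4 lower (15.3%) in forebrain. In knockout pools 6 were higher (14.6%) and 3 lower (14.8%). The widest gaps were in glypicans, heparan sulphate proteoglycans that help FGF bind its receptor. Gpc4 was at 17.0 and 24.7 CPM in wild-type midbrain and 116 CPM in both wild-type forebrain pools, a log2 fold change of 2.49 (SE 0.12, adjusted p = 1.24e-08), with 2.55 in knockout pools (SE 0.13, adjusted p = 1.42e-08). Gpc1 was higher by 1.43 and 1.29, while Gpc2 was lower by log2 fold changes of -0.89 and -0.76, and the adjusted p was at most 3.73e-05 for either gene in either comparison. Fgfrl1, a receptor without a kinase domain, was higher by 0.64 (SE 0.14, adjusted p = 0.00347) and 0.39 (SE 0.14, adjusted p = 0.0482). Its knockout call, close to the threshold, was not put to the alternative settings. The glypican family thus moved in both directions. So did syndecans, another family of heparan sulphate carriers: Sdc1 was higher by 0.41 in both comparisons (adjusted p = 0.00266 and 0.00285), the second lost without midbrain knockout replicate 1 (0.0648), and Sdc3 was lower, with -0.57 and -0.74 (adjusted p = 0.00106 and 0.000143). The wild-type Sdc1 call was not put to the alternative settings. Sdc4 was higher in wild-type forebrain by 1.05 (SE 0.19, adjusted p = 0.00121), with 0.49 (adjusted p = 0.0662) in knockout pools. Flrt2, a membrane partner of FGF receptors, was lower, with -0.75 and -0.51 (adjusted p = 0.000346 and 0.00474). Flrt1 was lower in wild-type pools (-0.53, adjusted p = 0.0285), with 0.04 (adjusted p = 0.872) in knockout pools, and lost the call with DESeq2 (0.0503) and without midbrain wild-type replicate 2 (0.164) or either forebrain pool (0.149 and 0.0782).

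All 15 other feedback genes and targets were tested. In wild-type forebrain 5 were higher (14.3% of all genes) and 2 lower (15.3%), and in knockout forebrain 7 were higher (14.6%) and 2 lower (14.8%). Shisa2 and Shisa3 encode proteins that hold FGF and Wnt receptors inside the cell, and they were opposed. Shisa2 was at 13.8 and 19.7 CPM in wild-type midbrain against 157 and 135 CPM in wild-type forebrain, higher by 3.14 on the log2 scale (SE 0.14, adjusted p = 7.06e-09), with 3.19 in knockout pools. Shisa3 was at 63.5 and 56.3 CPM in wild-type midbrain against 0.611 and 1.39 CPM in wild-type forebrain, a log2 fold change of -5.92 (SE 0.23, adjusted p = 1.69e-09), with -5.78 in knockout pools. Etv1, the third PEA3-group factor, was at 11.7 and 13.5 CPM in wild-type midbrain and 29.6 and 25.8 CPM in wild-type forebrain. Like Etv5 it was higher in forebrain, with log2 fold changes of 1.14 (SE 0.15, adjusted p = 0.000107) and 0.70 (SE 0.15, adjusted p = 0.00384). Its knockout call was not put to the alternative settings.

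ERK phosphatases besides Dusp6 varied as well. Dusp7 was higher in forebrain by 1.01 (SE 0.10, adjusted p = 5.40e-06) and 0.82 (SE 0.10, adjusted p = 4.58e-05), and Dusp9 by 1.15 (SE 0.24, adjusted p = 0.00266) and 0.90 (SE 0.25, adjusted p = 0.0153). The Dusp9 call in knockout pools was lost without midbrain knockout replicate 2 (0.70, adjusted p = 0.145) or forebrain knockout replicate 2 (0.59, adjusted p = 0.0971). Dusp5 was higher in knockout forebrain (0.94, SE 0.33, adjusted p = 0.0449), with 0.83 (adjusted p = 0.0535) in wild-type pools, and lost the call with DESeq2 (0.133), with limma-voom (0.0725), with only the groups compared (0.0699), with the replicate block (0.0564), and without either midbrain knockout pool (0.130 and 0.204) or forebrain knockout replicate 1 (0.148). Dusp4 had log2 fold changes of 0.07 (adjusted p = 0.736) and -0.04 (adjusted p = 0.873). Ccnd1, the cyclin D1 gene, was lower in forebrain, with -0.35 (SE 0.07, adjusted p = 0.00284) and -0.27 (SE 0.07, adjusted p = 0.0115), and its knockout call was lost without either midbrain knockout pool or without forebrain knockout replicate 2 (adjusted p = 0.0653, 0.0566 and 0.0823). All 20 relay genes between receptor and ERK were tested. In wild-type forebrain 3 were higher (14.3% of all genes) and 4 lower (15.3%), and in knockout forebrain 2 were higher (14.6%) and 3 lower (14.8%). The scaffold gene Ksr2 had the largest log2 fold change among them (-0.82, SE 0.25, adjusted p = 0.0240, and -0.89, SE 0.24, adjusted p = 0.0148), and its wild-type call was lost without any 1 of the 4 wild-type libraries (adjusted p = 0.0596 to 0.128). In knockout pools it was lost without midbrain knockout replicate 1 (-0.66, adjusted p = 0.175) or forebrain knockout replicate 2 (-0.65, adjusted p = 0.0783). The adaptor gene Shc1 (0.30 and 0.39) and Hras (0.27 and 0.33) were higher in both comparisons, and the adaptor gene Frs3 (-0.68 and -0.48) and the kinase gene Braf (-0.26 and -0.29) lower in both. Ksr1 was higher (0.62) and Frs2 lower (-0.26) in wild-type pools, with 0.47 (adjusted p = 0.0514) and -0.11 (adjusted p = 0.361) in knockout pools. With DESeq2 the wild-type calls of Shc1, Hras and Frs2 were lost (adjusted p = 0.0705, 0.0858 and 0.0643). That of Shc1 was also lost with upper-quartile scaling (0.0549) and a mean of at least 50 counts (0.0580). The knockout call of Frs3 was lost with DESeq2 (0.115), limma-voom (0.0527) and only the groups compared (0.0559). All 7 wild-type relay calls were lost without midbrain wild-type replicate 1 (adjusted p = 0.0596 to 0.274), and all 5 knockout relay calls without midbrain knockout replicate 1 (0.0770 to 0.175).

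Markers of other cell types were summed in the same libraries. The 10 neural progenitor markers summed to 4263 to 4403 CPM in midbrain and 3730 to 4230 CPM in forebrain, the 7 microglia and macrophage markers to 53.3 to 63.7 and 28.3 to 38.5 CPM, and the 7 endothelial markers to 216 to 270 and 274 to 282 CPM. Ranges of the sums overlapped between tissues for 10 cranial mesenchyme markers (1253 to 2185 CPM over the 8 libraries) and 12 erythroid genes (4126 to 8375 CPM). All genes of these 5 lists had counts in every library. In wild-type pools 4 of 7 microglia and macrophage markers were lower in forebrain and none higher, against 5 of 7 in knockout pools. Progenitor markers were called in both directions, with 5 of 10 higher and 3 lower in wild-type pools, and 4 higher and 3 lower in knockout pools. For endothelial markers 1 of 7 was higher in wild-type pools and 0 of 7 passed in knockout pools. Of the cranial mesenchyme markers, 4 of 10 were higher and 0 lower in wild-type forebrain, with 3 higher and 1 lower in knockout forebrain. Of the erythroid genes, 0 of 12 were higher and 1 lower in wild-type forebrain, with 2 higher and 0 lower in knockout forebrain. Over all genes tested, 14.3% were higher and 15.3% lower in wild-type forebrain, and 14.6% and 14.8% in knockout forebrain. The neuronal markers, summed above, were called lower in forebrain for 9 of 9 genes in both comparisons. The part of all these cell types in the values of Spry1, Dusp6, Etv5 and Fgf15 was not tested.

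Deleting hs654 left the FGF genes of the midbrain without a called change. By edgeR's quasi-likelihood test and adjusted p, 0 of 10 members passed, as did 0% of all genes tested. At an unadjusted p under 0.05 the count was 0 of 10 members and 609 of all genes, and DESeq2 and limma-voom also called 0 of both. The log2 fold changes, knockout over wild type, ran from -0.17 (Spry4) to 0.17 (Il17rd), all with an adjusted p of at least 0.992. The knockout and wild-type libraries did not overlap for 1 of 10 members (36.7% of all genes), Fgf15, at 45.5 and 48.5 CPM against 50.0 and 53.6 CPM. The 95% interval was narrowest for Fgfr2 (-0.22 to 0.19) and widest for Spry4 (-0.68 to 0.34), so a change of 1.5-fold is outside the first and inside the second. None of the 61 other pathway genes tested passed either.

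Deleting hs267-853 gave no called change among the members in forebrain, where 0.0130% of all genes (2 of 15383) passed. At an unadjusted p under 0.05 the count was again 0 of 10 members, and 736 of all genes. DESeq2 and limma-voom called 0 members as well, while Il17rd was called with no filter on low counts (0.29, adjusted p = 0.0396). The largest log2 fold changes were 0.34 for Fgf15 (SE 0.16, unadjusted p = 0.0503, adjusted p = 0.984) and 0.29 for Il17rd (SE 0.14, unadjusted p = 0.0582, adjusted p = 0.984). Fgf15 without forebrain wild-type replicate 1 was at 0.04, and without forebrain wild-type replicate 2 at 0.72, so this value was set by the wide gap between the wild-type pools. Libraries did not overlap for 6 of 10 members (31.1% of all genes): Spry1, Spry4, Etv4, Il17rd and Fgf15 were above and Fgfr2 below the wild type. None of the 61 other pathway genes passed. Without forebrain knockout replicate 2, 209 of all genes passed and still 0 of 10 members. The intervals reached from -0.25 to 0.71 for Spry4, the widest, and from -0.37 to 0.03 for Fgfr2, the narrowest. Forebrain knockout replicate 1, the library apart on the second component, was the lower of the knockout pair for 9 of 10 members (47.5% of all genes). Replicate 1 was also the lower for 7 of 7 feedback genes in both wild-type groups, as given below.

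**Figure D4:**
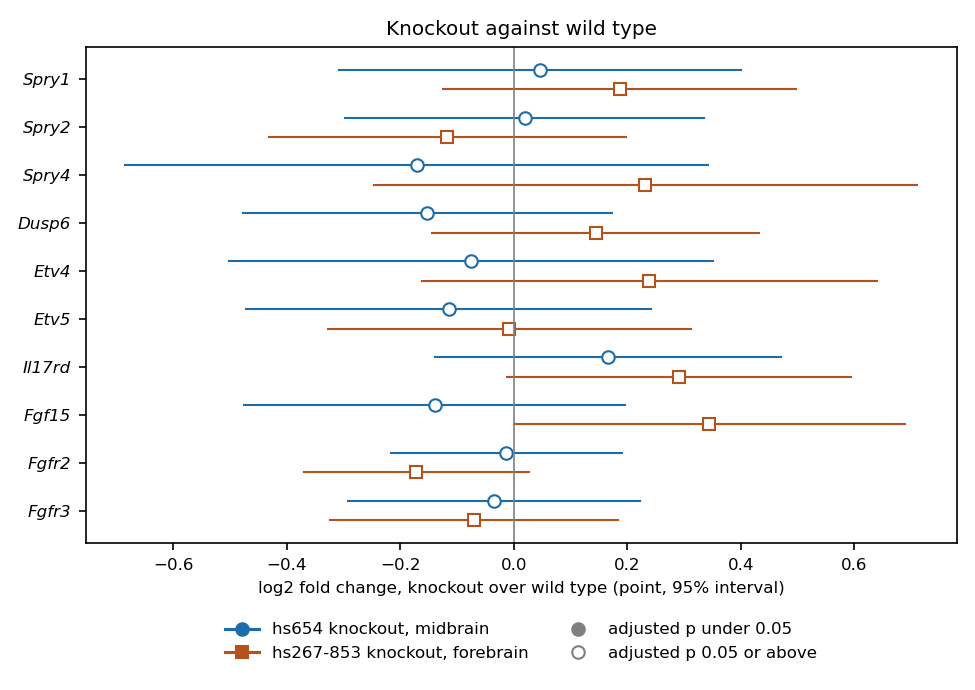
Log2 fold change of each gene, knockout over wild type (horizontal axis), with its 95% interval, for hs654 in midbrain (circles) and hs267-853 in forebrain (squares). All symbols are open, since no adjusted p was under 0.05, and the widest intervals belong to Spry4 and Etv4.

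The effect of hs654 in midbrain and that of hs267-853 in forebrain were compared directly by an interaction term. None of the 10 members passed with edgeR, DESeq2 or limma-voom, beside 0.00650% of all genes (1 of 15383) with edgeR, and 1 member had an unadjusted p under 0.05. The largest difference was for Fgf15, -0.48 (midbrain minus forebrain effect, SE 0.22, unadjusted p = 0.0490, adjusted p = 0.996). By its arithmetic this term also compares the forebrain-midbrain difference between wild-type and knockout pools, so the Fgf15 tissue difference of -0.83 in one and -0.34 in the other was not shown to differ. The 2 effects were measured in different tissues and with different enhancers deleted, so tissue and enhancer cannot be told apart in this design.

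Within groups, the feedback genes tended to shift together between pools. For 7 of them (Spry1, Spry2, Spry4, Dusp6, Etv4, Etv5 and Il17rd), replicate 1 was below replicate 2 in 7 of 7 genes in wild-type midbrain, wild-type forebrain and knockout forebrain, with median log2 differences of -0.40, -0.19 and -0.20. In knockout midbrain it was below in 3 of 7 genes, with a median of 0.10. Over all genes tested, replicate 1 was lower for 47.5% to 50.5% of genes in the 4 groups. Fgfr3 shifted the other way, with replicate 1 higher in all 4 groups (0.19 to 0.30), and Fgfr2 was higher in replicate 1 in 3 of 4 groups. The directions were as given under TMM, RLE and upper-quartile scaling and with no scaling factors. The labels do not say whether same-numbered pools were paired. The pattern was noticed in the values, so it is given with no test. Of the measures taken, replicate 1 had more counts than replicate 2 in each group, and in wild-type midbrain the erythroid sum was 8375 CPM in replicate 1 and 4417 CPM in replicate 2. The FGF source genes with Sp8 summed to 30.6 and 50.4 CPM in replicates 1 and 2 of wild-type midbrain. Their sum was 96.2 and 104 CPM in wild-type forebrain, 121 and 120 in knockout forebrain, and 43.2 and 40.4 in knockout midbrain. Cranial mesenchyme markers summed to 1368 and 1939 CPM in wild-type midbrain and 1253 and 1904 CPM in knockout forebrain. They summed to 2185 and 1737 CPM in wild-type forebrain and 1764 and 1892 CPM in knockout midbrain. The part of these measures in the shift was not tested.

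**Figure D5:**
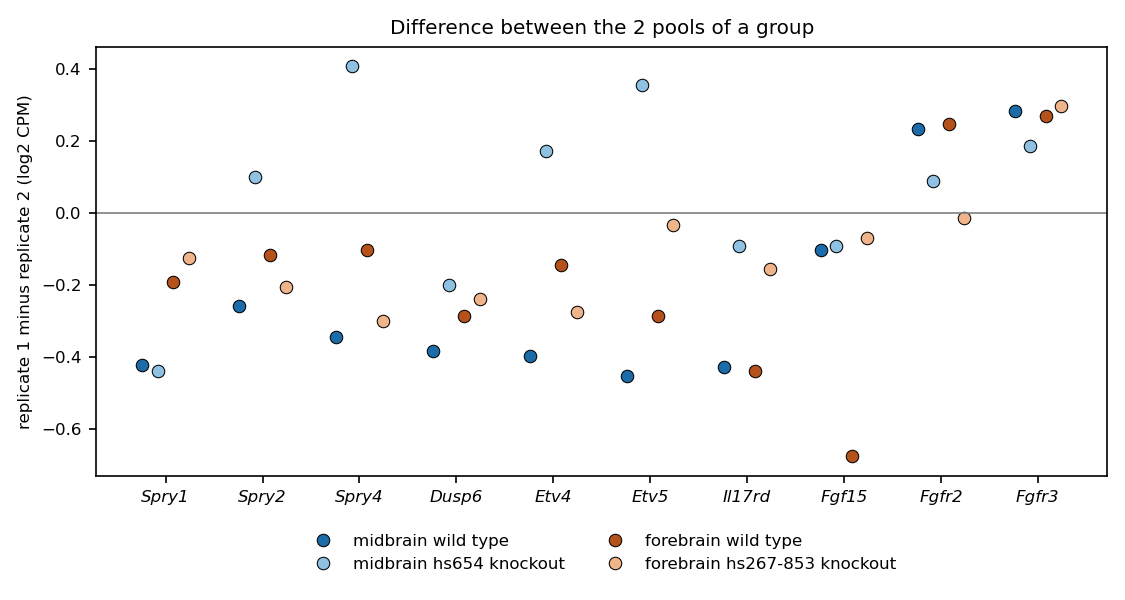
Difference between the 2 pools of a group, replicate 1 minus replicate 2 in log2 CPM (vertical axis), for the 10 genes, coloured by group. The 7 feedback genes lie below 0 in both wild-type groups and in knockout forebrain, are mixed in knockout midbrain, and Fgfr3 lies above 0 in all 4 groups.

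By likeness of log2 CPM over the 8 libraries, among 11877 genes with a mean of at least 5 CPM, the closest to Dusp6 were Isyna1 (Pearson's r = 0.996) and Eif4b (0.995), and the closest to Spry1 were Rspo2 (0.993) and Sympk (0.991). Etv5 was closest to Adamts9 (0.989) and Bbx (0.988), and Fgf15 to Zfp536 (0.988) and Ubr2 (0.978). For these 4 genes the libraries fall into 2 tissue clusters, which alone gives a high r to any gene split in the same way. Spry2, closest to Jmjd1c (0.981), was also split by tissue, by a narrow margin. Among genes whose tissues overlapped, Spry4 was closest to Zmat3 (0.985) and Vkorc1l1 (0.958), and Etv4 to Ext1 (0.970) and Zmat3 (0.962), so Zmat3 was shared by both. Il17rd was closest to Dpp8 (0.934), Fgfr2 to Arfip1 (0.949) and Fgfr3 to Acat1 (0.967). These are the highest of many values over 8 libraries and serve only as a description.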

How the data were processed

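Poly(A) RNA-seq of 8 libraries from E11.5 mouse brain was used, and titles gave each library's group. The other 21 samples, from enhancer-capture Hi-C, were not used here. The values are raw counts per gene symbol as deposited by the authors, with no normalization. STAR, HTSeq, DESeq2 and build mm10 are named in the submitters' processing notes, while versions, annotation and strand setting are not given in the sources used here, so reads of overlapping antisense genes may be included. The 5 rows that name no gene were left out, among them the reads in no feature, which were 55.4% to 58.9% of those in genes, no feature and ambiguous positions.

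Counts were analysed with edgeR 4.0.16 in R 4.3.3: filterByExpr, TMM scaling, and a quasi-likelihood fit with a mean per group over all 8 libraries. Two-sided p-values were adjusted over 15383 genes (Benjamini-Hochberg), with a threshold of 0.05. Log2 CPM used a prior count of 2. Replicate libraries differed by more than sampling noise, so each was counted as 1 replicate. Alternatives were other scalings, no filter, a filter at a mean of 50 counts, limma-voom (limma 3.58.1), DESeq2 1.42.0, a minimum change of 1.5-fold, only the groups compared, a replicate block and each library left out. The steps were tested on simulated data. Pathway genes were named when called (up to 4 per list and direction by size, with a mean of at least 1 CPM). Fgf8, Fgf17, Fgf18 and Fgfr1 were always named. Dusp4 was named after its values were seen, and Fgf13 was also named outside this rule. A pathway gene was put to the alternatives only in the comparisons where this rule named it. The members, lists and rules were chosen with earlier results of these data known.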

Additional observations from a re-analysis of the deposited data

Results flagged for a closer look

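Fgf15 is given a closer look because every knockout library moved one way in midbrain and the other way in forebrain. Knockout and wild-type libraries did not overlap, in either direction, for 36.7% of all genes in midbrain and 31.1% in forebrain. The share of all genes split in opposite directions was not counted, so nothing particular to Fgf15 is read from this split. In midbrain both hs654 knockout pools (45.5 and 48.5 CPM) were below both wild-type pools (50.0 and 53.6 CPM), and in forebrain both hs267-853 knockout pools (36.14 and 37.92 CPM) were above the wild-type pools (22.53 and 36.07 CPM), the nearest of them almost level. The difference between the effects was -0.484 on the log2 scale (midbrain minus forebrain), and it did not pass (edgeR, unadjusted p = 0.0490, adjusted p = 0.996). It ranged from -0.86 to -0.18 when 1 library was left out.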

How the results depend on the processing

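Over every alternative (scalings, filters, tools, the groups compared, the replicate block, the minimum change and left-out libraries), 620 of the member log2 fold changes kept their direction and their side of the threshold, 46 changed sign, 7 gained and 7 lost the call, 5 of the losses with the minimum change of 1.5-fold, and no called value changed sign. With 2 pools per group a left-out library leaves 1 pool whose spread is taken from the other groups. With no filter, 22, 161 and 111 genes were called for hs654, hs267-853 and the difference between them, and Il17rd was 1 member called for hs267-853 (adjusted p = 0.0396). In that setting Il17rd was also called between wild-type tissues (adjusted p = 0.00185), Fgf15 between knockout tissues (0.00841) and Fgf18 between wild-type tissues (0.0378). With DESeq2 13 genes were called for hs267-853 and 4 for the difference. With only the groups compared, 1 gene was called for each knockout, and Fgf15 between knockout tissues (adjusted p = 0.0233). For hs267-853, limma-voom and a minimum change of 1.5-fold called 1 gene each. With that minimum change, 1086 genes and 0 members were called between wild-type tissues, 1026 genes between knockout tissues and 0 genes for the difference. Of the pathway genes named, Gpc1, Gpc2, Gpc4, Shisa2, Shisa3, Etv1 and Dusp7 passed it in wild-type pools, and Gpc1, Gpc4, Shisa2, Shisa3, Fgf11 and Fgf12 in knockout pools. The cause of these shifts was not tested. Leaving out 1 library gave 2816 to 3510 genes between wild-type tissues, 2810 to 4267 between knockout tissues, 0 to 8 for hs654, 3 to 209 for hs267-853 and 0 to 64 for the difference, the highest 2 without forebrain knockout replicate 2.

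The values that changed sign had not passed the threshold in the report. Between wild-type tissues, Spry4 was at 0.0107 with limma-voom, and Etv4 at -0.00807 with upper-quartile scaling, -0.0169 with a mean of at least 50 counts, -0.00204 with DESeq2 and -0.00146 with only the groups compared. Etv5 for hs267-853 was at 0.00344 and Fgf18 between knockout tissues at 0.0282 with limma-voom. With 1 library left out, log2 fold changes between wild-type tissues ranged from -0.187 to 0.172 for Spry4, -0.199 to 0.209 for Etv4 and -0.158 to 0.130 for Fgfr3. Between knockout tissues they ranged from -0.0511 to 0.0186 for Fgfr2, -0.207 to 0.0904 for Fgfr3 and -0.688 to 0.940 for Fgf18. For hs654 the ranges were -0.182 to 0.271 for Spry1, -0.106 to 0.149 for Spry2, -0.398 to 0.0102 for Spry4, -0.336 to 0.0451 for Dusp6, -0.268 to 0.131 for Etv4, -0.330 to 0.121 for Etv5, -0.0334 to 0.391 for Il17rd, -0.124 to 0.114 for Fgfr2 and -0.169 to 0.118 for Fgfr3. For hs267-853 they were -0.145 to 0.140 for Etv5 and -0.229 to 0.0726 for Fgfr3. For the difference between the deletions they were -0.369 to 0.0942 for Spry1, -0.322 to 0.129 for Etv5, -0.359 to 0.0995 for Il17rd and -0.109 to 0.193 for Fgfr3.

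The labels do not say whether same-numbered pools were paired. Deviations of same-numbered libraries correlated between -0.025 and 0.067 over all genes tested. Such a correlation cannot show a factor shared by only some genes, so pairing was not settled. With a replicate block, 5 members were called between wild-type tissues, Il17rd being added (adjusted p = 0.0270), 3 between knockout tissues and 0 for either knockout. The low counts of Spry4 and Etv4 limit what could be seen for them.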
